A study of Mus musculus with 8 samples.

Results

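The genes of fatty acid synthesis and of cholesterol synthesis were followed in fasted white quadriceps of mice that lack Acot2 in muscle. The members were chosen by name from a list of 36 genes, 15 of the lipogenic pathway and 21 of the sterol pathway, each with its enzymes and regulators. Of these, 35 had a row among the 54091 rows of the expression table, and 34 passed the filter of a mean normalized count of at least 10, as did 13141 genes in all. All 15 lipogenic genes were tested, against 19 of the 21 sterol genes. Tm7sf2 has no row of its own and was not analysed here, and Sqle lay under the filter.

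RNA-seq was done on the white quadriceps, a muscle portion of mostly fast glycolytic fibres, from 8 male mice aged 11 to 14 weeks after a 14 h overnight fast. The Acot2 muscle knockout (replicates 5 to 8, n = 4) is labelled as a CKM Cre line, in which Cre recombinase is driven by the muscle creatine kinase promoter and so acts in muscle fibres and not in the other cells of the tissue. The floxed control (replicates 1 to 4, n = 4) is labelled Loxp/Loxp, and its label names no Cre. The Acot2 enzyme hydrolyses long-chain acyl-CoA inside mitochondria, and the series places it in fatty acid oxidation of glycolytic muscle. The exons that are floxed are not stated in the sources used here, and an effect of Cre itself cannot be told apart from loss of Acot2, because no group with Cre alone was analysed here. Each title carries its own mouse number, so the spread between replicates is a spread between animals.

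Fatty acids are built in the cytosol from acetyl-CoA, which ATP citrate lyase releases from citrate and which acetyl-CoA carboxylase and fatty acid synthase turn into palmitate, with NADPH from malic enzyme. Cholesterol is built from the same acetyl-CoA through mevalonate, farnesyl diphosphate, squalene and lanosterol. SREBP-1c and ChREBP are the main transcription factors of the lipogenic genes and follow insulin and glucose, while SREBP-2 drives the sterol genes when membrane cholesterol is low. INSIG proteins hold SREBP in the endoplasmic reticulum, and Insig1 is itself an SREBP target gene. In the liver, fasting is known to lower lipogenic genes, and in muscle both pathways run at a low rate.

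Values are the authors' size-factor-normalized read counts. A difference is that of the knockout over the floxed control as log2(n + 1), with the standard error (SE) of limma and a p adjusted by Benjamini-Hochberg over all 13141 genes. Libraries held 28659633 to 40977866 reads on genes. The targeted gene Acot2 had 467 ± 130 normalized counts in knockouts and 2406 ± 1099 in floxed controls (SD, n = 4 each), so the knockout mean was 19.4% of the control mean. The 4 knockouts, at 312 to 600, lay under all 4 floxed controls, at 1530 to 3927, and an exact permutation test (two-sided, 70 assignments) gave 0.0286, the smallest p possible. Its difference was -2.30 (SE 0.287) with a limma adjusted p of 0.0870, which misses 0.05. Acot1, its near-identical neighbour, can share reads with it. Markers of fast fibres were high in every library, with Myh4, the myosin heavy chain of the fastest fibres, at 1397870 to 2597330 normalized counts in knockouts and 2093810 to 2917700 in floxed controls.

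No member of either pathway passed an adjusted p of 0.05. The limma calls were 0 of 15 lipogenic and 0 of 19 sterol genes, where 0% of all tested genes were called, and voom on the recovered reads also gave 0. Adjusted p of the members ran from 0.746 to 0.999. At an unadjusted p under 0.05 stood 0 lipogenic genes and 3 sterol genes, Hsd17b7 and Nsdhl with higher values and Insig1 with lower values in knockouts. These 3 are 15.8% of the sterol genes, where 6.16% of all tested genes had such a p, 2.47% with higher and 3.7% with lower values. The median difference was 0.0011 over the lipogenic genes, 0.084 over the sterol genes and 0.0031 over all tested genes. Of all tested genes, 50.6% had a positive difference. Single mice moved these counts. Without knockout 5, Fads2, Fasn, Me1 and Srebf2 also had an unadjusted p under 0.05 with lower values in knockouts. Of all 13141 tested genes, 2200 then had such a p, 1065 with higher and 1135 with lower values. Without floxed control 2, Fasn and Thrsp had an unadjusted p under 0.05 with lower values. Then 862 of the 13141 genes had such a p, 491 of them with lower values.

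**Figure D1:**
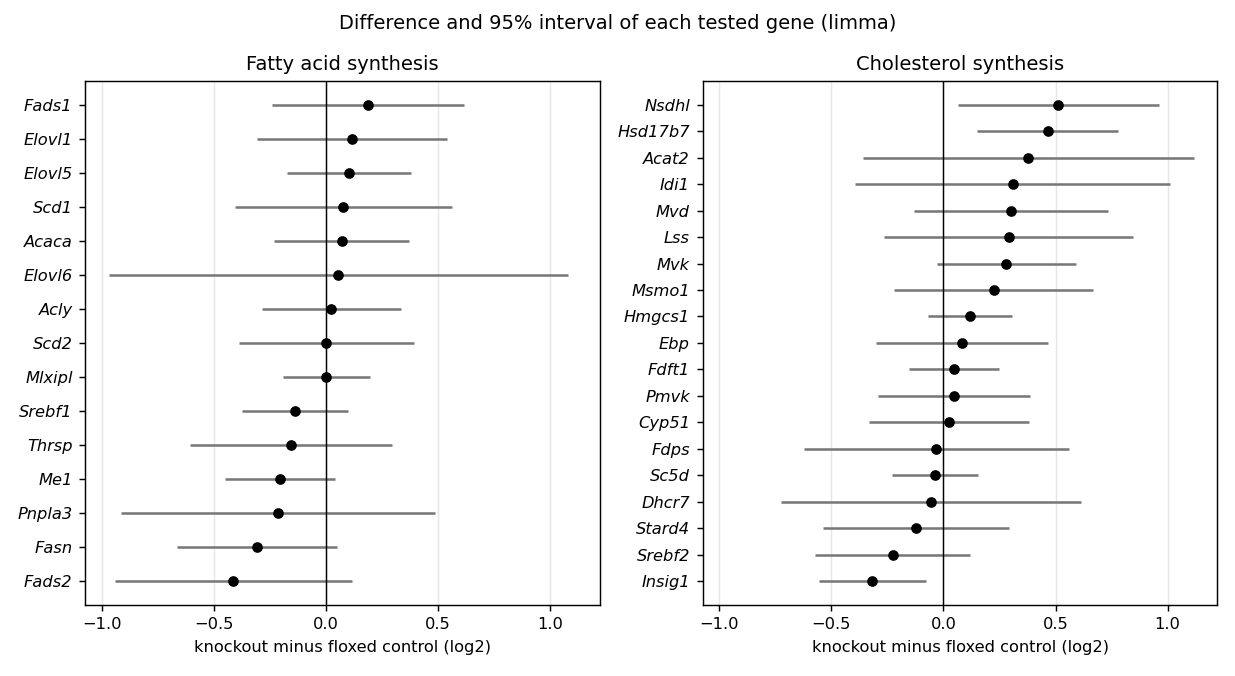
Differences of the 34 tested genes, log2 of knockout over floxed control, as points with the 95% interval of the limma fit as bars (4 mice per group), fatty acid synthesis on the left and cholesterol synthesis on the right. All 15 lipogenic intervals cross 0, as do 16 of 19 sterol intervals, while those of Nsdhl, Hsd17b7 and Insig1 do not.

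The promoters of 4 sterol genes are shown. They belong to the members with the smallest p and to Hmgcs1, the sterol member with a match to TCACNCCAC. The sequences are from RefSeq, build GRCm38.p6, read 5′ to 3′ on the strand of the gene. They cover chr1:169969242-169969405 on the minus strand for Hsd17b7, chr5:28071212-28071362 on the plus strand for Insig1, chrX:72918321-72918520 on the plus strand for Nsdhl and chr13:119690151-119690350 on the plus strand for Hmgcs1. Each run ends before any annotated transcript. Capitals mark the motifs found, which are CACGTG (the E-box, a palindrome that is the core of the sites for ChREBP and other helix-loop-helix factors), CCAAT (the site of NF-Y, a known partner of SREBP, written ATTGG on the other strand) and TCACNCCAC (a sterol regulatory element).
Hsd17b7: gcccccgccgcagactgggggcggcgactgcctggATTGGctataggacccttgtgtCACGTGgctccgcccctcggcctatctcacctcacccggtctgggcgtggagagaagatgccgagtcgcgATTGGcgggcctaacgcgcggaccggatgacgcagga
Insig1: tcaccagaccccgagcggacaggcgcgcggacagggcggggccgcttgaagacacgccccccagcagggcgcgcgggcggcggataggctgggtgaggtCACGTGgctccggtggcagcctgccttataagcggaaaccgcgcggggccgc
Nsdhl: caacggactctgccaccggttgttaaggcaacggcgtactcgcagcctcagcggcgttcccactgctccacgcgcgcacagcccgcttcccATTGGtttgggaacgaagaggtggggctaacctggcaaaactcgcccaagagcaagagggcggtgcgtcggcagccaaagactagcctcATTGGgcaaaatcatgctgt
Hmgcs1: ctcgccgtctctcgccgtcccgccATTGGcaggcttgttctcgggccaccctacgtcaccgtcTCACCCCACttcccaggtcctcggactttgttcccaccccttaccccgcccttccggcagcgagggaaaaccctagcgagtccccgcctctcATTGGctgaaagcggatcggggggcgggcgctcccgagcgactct

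Hsd17b7 and Insig1, whose differences had opposite signs, both hold an E-box. Both strands were searched in 250 bases before to 50 bases after the start of each gene, for the 12 lipogenic and 17 sterol members with an entry, and no motifs marked in the printed sequences share a base. CCAAT stood in 9 of the 12 lipogenic windows (75%) and 16 of the 17 sterol windows (94.1%), against 41.1% of 27025 windows of all genes. The E-box stood in 2 of 12 lipogenic windows (16.7%, Elovl5 and Mlxipl) and 4 of 17 sterol windows (23.5%, Dhcr7, Hsd17b7, Insig1 and Sc5d), against 8.09% of all windows. TCACNCCAC stood in 1 of 12 (Mlxipl) and 1 of 17 (Hmgcs1), against 1.44% of all windows. A match describes letters in the window and shows no binding. Sites spelled otherwise were not searched for, so a window without a match can still hold a site.

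Substrate supply to fatty acid synthesis had the most abundant member of the lipogenic pathway. Me1, cytosolic malic enzyme and a source of NADPH (chr9:86581371-86695953), had 5616, 4199, 3912 and 4489 normalized counts in knockouts 5 to 8, against 5127, 5286, 4786 and 5629 in floxed controls 1 to 4. Knockouts 6, 7 and 8 lay under every control, and knockout 5 was within the control range. The difference was -0.20 (SE 0.111) with a limma adjusted p of 0.747, and -0.31 without knockout 5. Per kilobase of the longest transcript its mean level over the 8 mice, 1483 normalized counts, was the highest of all members. Acly, which releases acetyl-CoA from citrate, averaged 364 ± 66.5 in knockouts and 354 ± 20.8 in floxed controls (SD, n = 4 each), a difference of 0.022 (SE 0.141).

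Chain synthesis had 1 gene with lower and 1 with near-equal values. Fasn, the multifunctional fatty acid synthase (chr11:120805846-120824547), had 694, 504, 584 and 465 normalized counts in knockouts 5 to 8, against 714, 537, 879 and 662 in floxed controls 1 to 4. Knockouts 6 and 8 lay under every control and the groups overlapped. The difference of Fasn, -0.31 (SE 0.163, 95% interval -0.67 to 0.05), had the smallest p of the lipogenic genes, 0.0852 unadjusted and 0.746 adjusted by limma, and was -0.19 without floxed control 3. Acaca, the cytosolic acetyl-CoA carboxylase that makes malonyl-CoA, averaged 439.7 ± 50.2 in knockouts and 421 ± 70.6 in floxed controls (SD, n = 4 each), with a difference of 0.070 (SE 0.137).

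The 3 elongases all had small positive differences, with a median of 0.10. Elovl5, which lengthens polyunsaturated chains, averaged 354 ± 45.7 in knockouts and 329 ± 36.1 in floxed controls, and Elovl1, which makes very long saturated chains, averaged 72.3 ± 10.2 and 66.8 ± 11.5 in the same order (SD, n = 4 each). Elovl6, which lengthens palmitate to stearate, was the lowest tested lipogenic gene at 2.23 normalized counts per kilobase. It rested on 7, 11, 19 and 15 reads in knockouts and 7, 10, 19 and 18 reads in floxed controls, and its 95% interval, -0.97 to 1.08, leaves changes of up to 1 log2 unit undetectable at this depth.

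Among the desaturases, Scd1 had the widest spread between mice and Fads2 the most negative difference. Scd1, the main stearoyl-CoA desaturase of fat and liver (chr19:44394455-44407879), had 1723, 1473, 1623 and 1251 normalized counts in knockouts 5 to 8, against 908, 1448, 2228 and 1423 in floxed controls 1 to 4. The controls enclose all the knockouts, and the highest mouse was 2.45 times the lowest. The difference was 0.076 (SE 0.220, limma adjusted p 0.944) and ran from -0.14 without floxed control 1, so that its sign rests on that mouse, to 0.29 without floxed control 3. Scd2, its relative of brain and nerve, averaged 467 ± 66.3 in knockouts and 475 ± 125 in floxed controls (SD, n = 4 each), a difference of 0.0011 (SE 0.177).

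The desaturases of polyunsaturated chains, neighbours on chromosome 19, gave differences of opposite sign. Fads2, the delta-6 desaturase (chr19:10062765-10101746), had 43.3, 27.2, 27.9 and 26.6 normalized counts in knockouts 5 to 8, against 46.1, 40.0, 38.6 and 40.0 in floxed controls 1 to 4. Knockouts 6, 7 and 8 lay under every control, and knockout 5 lay among the controls. The difference was -0.41 (SE 0.241), the lowest of the lipogenic genes, with a limma adjusted p of 0.749. Fads1, the delta-5 desaturase (chr19:10182888-10196877), had 126, 158, 181 and 123 in knockouts 5 to 8, against 132, 128, 94.9 and 164 in floxed controls 1 to 4. Its groups overlapped, with a difference of 0.19 (SE 0.195) and a limma adjusted p of 0.836. Single mice moved it to 0.047 without floxed control 3, 0.083 without knockout 7 and 0.31 without floxed control 4.

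The lipogenic regulators were expressed at steady levels in both groups. Srebf1, the gene of SREBP-1 (chr11:60199089-60222581), had 674, 528, 623 and 576 normalized counts in knockouts 5 to 8, against 572, 694, 697 and 678 in floxed controls 1 to 4. The groups overlapped through floxed control 1 alone, which lay under knockouts 5, 7 and 8. The difference was -0.14 (SE 0.107, limma adjusted p 0.785), or -0.079 without knockout 6. Counts per gene do not separate the SREBP-1a and SREBP-1c transcripts. Mlxipl, the gene of ChREBP (chr5:135089890-135138382), had 557, 615, 618 and 606 in knockouts 5 to 8, against 612, 554, 587 and 643 in floxed controls 1 to 4. It had the narrowest range of all members, with the highest mouse at 1.16 times the lowest, and a difference of 0.0009 (SE 0.0877, 95% interval -0.19 to 0.19, limma adjusted p 0.998). A change larger than 0.2 log2 units lies outside that interval in either direction.

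Thrsp, the Spot 14 protein that follows lipogenic stimuli, averaged 199 ± 33.8 in knockouts and 225 ± 54.0 in floxed controls (SD, n = 4 each), a difference of -0.15 (SE 0.205). Pnpla3, a lipid droplet protein controlled by SREBP-1c in liver, averaged 23.6 ± 7.78 in knockouts and 26.9 ± 5.85 in floxed controls (SD, n = 4 each), a difference of -0.22 (SE 0.318). Of the 4 regulators and responders, 3 (4 with voom, through Mlxipl) had negative differences and the median was -0.15. None of the 15 lipogenic genes separated the groups, where the values of 2.75% of all tested genes did not overlap.

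**Figure D2:**
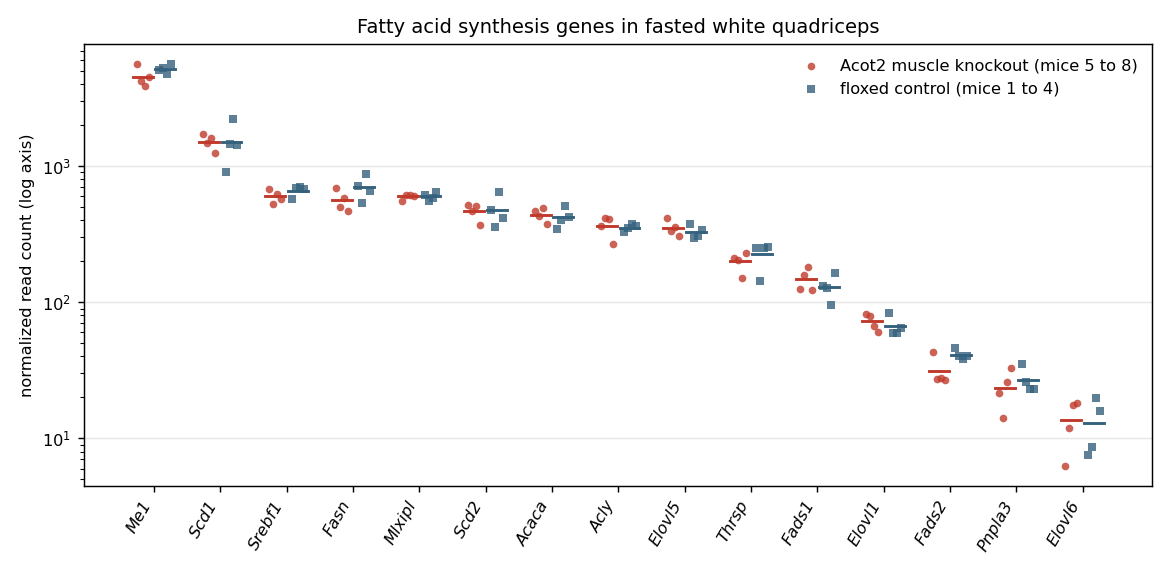
Normalized read counts of the 15 fatty acid synthesis genes in each mouse on a log axis, knockouts (circles) left of floxed controls (squares), with the group mean as a bar. Levels run from Me1, at 3912 to 5629 over the 8 mice, to Elovl6, at 6.31 to 19.8, and the groups overlap for every gene.

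In the sterol pathway, the enzymes from acetyl-CoA to farnesyl diphosphate had higher values in knockouts for 6 of 7 genes, with a median difference of 0.28. Of all tested genes, 50.6% had higher values in knockouts. None of the 7 had an unadjusted p under 0.05. The median was 0.13 without floxed control 4, with 5 of 7 positive, and 0.18 to 0.19 without knockout 5, 6 or 8. Hmgcs1, the cytosolic HMG-CoA synthase (chr13:119690379-119708260), had 998, 992, 1071 and 996 normalized counts in knockouts 5 to 8, against 997, 864, 1008 and 874 in floxed controls 1 to 4. Controls 2 and 4 lay under all the knockouts and controls 1 and 3 lay among them. The difference was 0.12 (SE 0.0851, limma adjusted p 0.772). Acat2, the cytosolic acetoacetyl-CoA thiolase ahead of it, averaged 46.8 ± 16.9 in knockouts and 35.6 ± 13.2 in floxed controls (SD, n = 4 each), with a difference of 0.38 (SE 0.335) and a highest mouse 3.04 times the lowest.

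Mvk, mevalonate kinase (chr5:114444269-114460591), was 1 of the 2 sterol genes whose groups did not overlap. Its normalized counts were 109, 110.0, 118 and 100.4 in knockouts 5 to 8, against 85.8, 90.5, 94.9 and 88.0 in floxed controls 1 to 4. Every knockout lay above every control, and the difference was 0.28 (SE 0.141) with an unadjusted p of 0.0710 and a limma adjusted p of 0.746. The limma fit draws the spread of Mvk, which was small within both groups, toward that of genes at the same level.

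The other kinase and the decarboxylase gave smaller separations. Mvd, mevalonate diphosphate decarboxylase (chr8:122433601-122443422), had 67.6, 89.3, 62.4 and 66.6 normalized counts in knockouts 5 to 8, against 53.6, 63.5, 65.7 and 48.0 in floxed controls 1 to 4. Knockouts 5, 6 and 8 lay above every control, with a difference of 0.30 (SE 0.196) and a limma adjusted p of 0.763, or a difference of 0.19 without knockout 6. Pmvk, phosphomevalonate kinase, averaged 149 ± 10.3 in knockouts and 146 ± 24.2 in floxed controls (SD, n = 4 each), a difference of 0.048 (SE 0.153). Idi1, the isomerase of isopentenyl diphosphate, was the lowest tested sterol gene at 8.54 normalized counts per kilobase, with 28.6 ± 7.19 in knockouts and 23.1 ± 6.76 in floxed controls (SD, n = 4 each) and a difference of 0.31 (SE 0.319). Fdps, farnesyl diphosphate synthase, had equal means of 32.4 ± 8.97 in knockouts and 32.4 ± 4.13 in floxed controls (SD, n = 4 each).

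Fdft1, squalene synthase and the first enzyme committed to sterols (chr14:63145150-63179578), was the most abundant sterol gene, at 808 normalized counts per kilobase over the 8 mice. It had 2709.6, 2958, 3283 and 3202 normalized counts in knockouts 5 to 8, against 3083, 3218, 2748 and 2694 in floxed controls 1 to 4. The ranges lay nearly on top of each other, with a difference of 0.05 (SE 0.0912, 95% interval -0.15 to 0.25) and a limma adjusted p of 0.902. With single mice left out that difference ran from 0.0095 to 0.10. Sqle, squalene epoxidase and a rate-limiting enzyme of the pathway, was near the floor of detection, with 6, 11, 13 and 7 reads in knockouts 5 to 8 and 9, 4, 4 and 12 reads in floxed controls 1 to 4. Lss, lanosterol synthase, averaged 76.4 ± 18.1 in knockouts and 62.8 ± 16.2 in floxed controls (SD, n = 4 each), a difference of 0.29 (SE 0.252).

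The steps from lanosterol to cholesterol held the sterol enzymes with an unadjusted p under 0.05. Hsd17b7, a ketoreductase that acts in the removal of the methyl groups of lanosterol (chr1:169949535-169969241), had 306, 388, 445 and 372 normalized counts in knockouts 5 to 8, against 329, 263, 239 and 259.5 in floxed controls 1 to 4. Knockouts 6, 7 and 8 lay above every control, and knockout 5 lay under floxed control 1. The difference was 0.47 (SE 0.143, 95% interval 0.15 to 0.78), with an unadjusted p of 0.00752 and a limma adjusted p of 0.746. Hsd17b7 had the smallest p of all 34 members.

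Nsdhl, the sterol dehydrogenase that works in the same complex (chrX:72918557-72958514), had 60.4, 57.7, 68.0 and 67.8 normalized counts in knockouts 5 to 8, against 44.0, 37.4, 57.3 and 40.0 in floxed controls 1 to 4. All the knockouts lay above all the controls, by a margin of less than 1 normalized count between knockout 6 and floxed control 3. The difference of 0.51 (SE 0.203, 95% interval 0.06 to 0.96) was the highest of the members, with an unadjusted p of 0.0285 and a limma adjusted p of 0.746. The limma unadjusted p was under 0.05 in 11 of 18 alternatives. It was 0.0501 to 0.0752 when floxed control 1, 2 or 4 or knockout 7 or 8 was left out. It also missed 0.05 with no filter on low values, and with floxed control 4 and knockout 5 both left out. The highest p over the alternatives was 0.0821. The groups of 2 of the 19 sterol genes, Mvk and Nsdhl, did not overlap, against the 2.75% of all tested genes. Msmo1, the methyl oxidase that precedes both in each round of demethylation, averaged 73.7 ± 13.5 in knockouts and 62.8 ± 10.2 in floxed controls (SD, n = 4 each), a difference of 0.22 (SE 0.202).

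The remaining enzymes of this stretch differed by less than 0.1 log2 units. Cyp51, the lanosterol demethylase, differed by 0.024 (SE 0.162), and Ebp, the sterol isomerase, by 0.084 (SE 0.174). Sc5d, the lathosterol desaturase, averaged 1031 ± 86.2 in knockouts and 1055 ± 48.6 in floxed controls (SD, n = 4 each), and differed by -0.037 (SE 0.0869). Dhcr7, which completes the pathway by reducing 7-dehydrocholesterol, differed by -0.054 (SE 0.303), with mice between 36.4 and 74.0 normalized counts. Over the 16 tested sterol enzymes, 13 differences were positive and the median was 0.17, where 50.6% of all tested genes had positive differences. With libraries scaled to equal totals 15 were positive, where the share of all tested genes also rose, to 58.9%. With quantile normalization 12 were positive, against 49.6% of all tested genes. Leaving out floxed control 4 brought the median to 0.085, and leaving out knockout 7 to 0.11.

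The regulators and the carrier of the sterol pathway had negative differences, while most of its enzymes had positive ones. Insig1, which retains SREBP in the endoplasmic reticulum (chr5:28071363-28078662), had 891, 737, 746 and 825 normalized counts in knockouts 5 to 8, against 866, 1175, 975 and 982 in floxed controls 1 to 4. Knockouts 6, 7 and 8 lay under every control, and knockout 5 lay just above floxed control 1. The difference was -0.32 (SE 0.109, 95% interval -0.56 to -0.08), with an unadjusted p of 0.0142 and a limma adjusted p of 0.746. Insig1 is also the second most abundant sterol member per kilobase, at 334 normalized counts.

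Srebf2, the gene of SREBP-2 (chr15:82147181-82205379), had 334, 205, 273 and 219 normalized counts in knockouts 5 to 8, against 288, 283, 333 and 284 in floxed controls 1 to 4. Knockouts 6, 7 and 8 lay under every control and knockout 5 above them all, and the difference was -0.23 (SE 0.157, limma adjusted p 0.765). It was -0.36 without knockout 5 and -0.13 without knockout 6. Stard4, a cytosolic sterol carrier and SREBP-2 target, averaged 55.9 ± 9.64 in knockouts and 60.3 ± 2.04 in floxed controls (SD, n = 4 each), a difference of -0.12 (SE 0.189). All 3 differences were negative, with a median of -0.23, and the contrast with the enzymes was not tested.

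**Figure D3:**
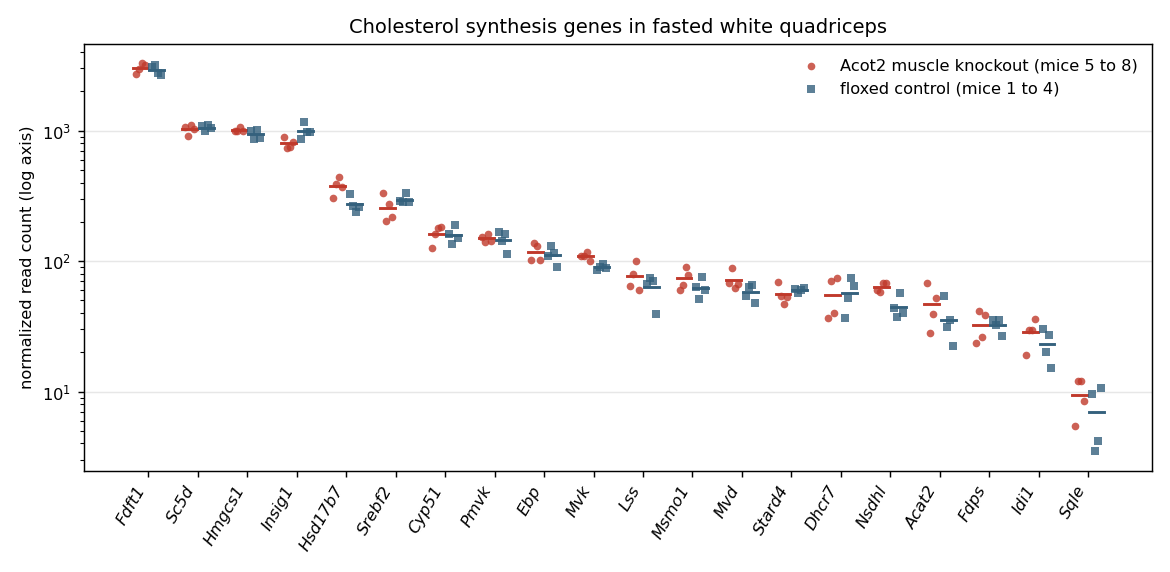
Normalized read counts of the 20 cholesterol synthesis genes with a row, in each mouse on a log axis, knockouts (circles) left of floxed controls (squares), with the group mean as a bar. The groups are apart for Mvk and Nsdhl, and for Hsd17b7 and Insig1 3 of 4 knockouts lie beyond every control.

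Taken by mouse, the sterol enzymes were uneven within the floxed controls. Of the 16 tested enzymes, 7, 11, 13 and 11 lay above their own median over the 8 mice in knockouts 5 to 8, against 8, 3, 10 and 1 in floxed controls 1 to 4. Floxed control 4 was the lowest mouse for 7 of them, and knockout 7 was the highest for 8. The mean log2 value of these enzymes was 7.13 ± 0.101 in knockouts and 6.95 ± 0.156 in floxed controls (SD, n = 4 each), with floxed controls 1 and 3 inside the knockout range. Without floxed control 4, the median difference of the 19 sterol genes was 0.0191.

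The lipogenic genes were also uneven between mice. Of 15, 9, 6, 10 and 3 lay above their median in knockouts 5 to 8, against 10, 4, 8 and 10 in floxed controls 1 to 4. Floxed control 3 was the highest mouse for 6 of them and floxed control 2 the lowest for 5. The mean log2 value was 7.94 ± 0.0766 in knockouts and 8.00 ± 0.113 in floxed controls (SD, n = 4 each). Ttn, the giant sarcomere protein, took 13.9%, 8.67%, 8.34% and 9.22% of reads in knockouts 5 to 8. In floxed controls 1 to 4 it took 12.8%, 11.8%, 12.2% and 14.9%. Knockouts 6, 7 and 8 thus lay under every control, and knockout 5 lay within the control range. The same knockouts lay beyond every control for Me1, Fads2, Hsd17b7, Insig1, Srebf2 and Stard4, while for Mvd these were knockouts 5, 6 and 8. Whether the Ttn share moves the members was not tested.

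**Figure D4:**
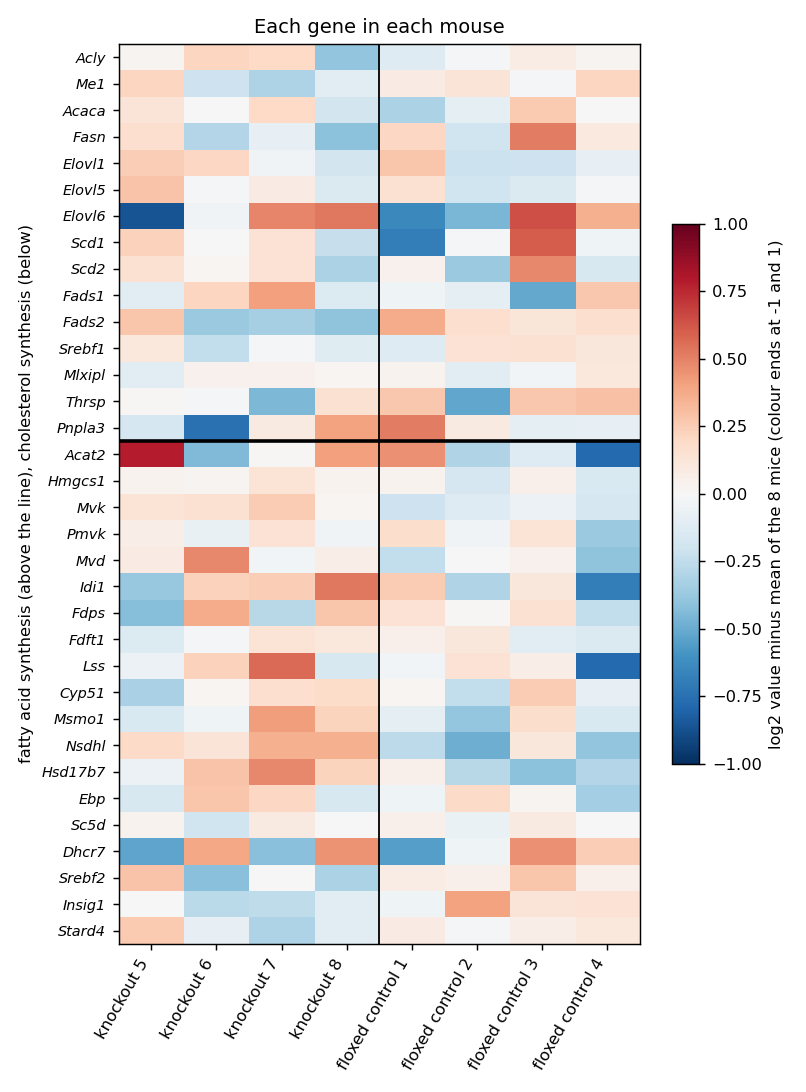
Each tested gene (rows, fatty acid synthesis above the thick line and cholesterol synthesis under it) in each mouse (columns, knockouts 5 to 8 left of floxed controls 1 to 4), coloured by its log2 value minus the mean of the 8 mice. Floxed control 4 is blue across most sterol enzymes, and floxed control 3 is red at Fasn, Scd1, Scd2 and Elovl6.

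The precision of 4 mice per group sets what could be seen. The 95% intervals reached 0.39 log2 units to either side of the difference at the median lipogenic gene and 0.38 at the median sterol gene. For 14 of 15 lipogenic and 17 of 19 sterol genes the whole interval lay within 1 log2 unit of 0, so for these a change larger than 2-fold lies outside the interval.

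Other genes of both pathways, taken from a list by function, gave no call. On the fatty acid side 21 of 28 were tested, 0 passed, and 14 had positive differences with a median of 0.11. The smallest p there belonged to Cbr4, a reductase of mitochondrial fatty acid synthesis, at 0.25 (SE 0.125, limma adjusted p 0.746), and to Mlxip, the gene of the ChREBP relative MondoA, at -0.27 (SE 0.150, limma adjusted p 0.748). Mlxip stood at 4112 to 6130.4 normalized counts in knockouts and 5142 to 7751 in floxed controls, and the groups overlapped. On the sterol side 19 of 20 were tested, 0 passed, and 8 had positive differences with a median of -0.038. Mylip, the ubiquitin ligase that degrades the LDL receptor and is a target of liver X receptors, differed by 0.29 (SE 0.116), with an unadjusted p of 0.0281 and a limma adjusted p of 0.746. Scap, which escorts SREBP to the Golgi, differed by -0.18 (SE 0.103, limma adjusted p 0.748).

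A piece of muscle also holds fat cells, which make lipogenic enzymes, and Schwann cells, which make sterols for myelin. In bulk tissue, fewer cells of a type and less RNA per cell cannot be told apart. The 8 tested adipocyte markers had a mean log2 level of 6.86 ± 0.835 in knockouts and 6.68 ± 0.954 in floxed controls (SD, n = 4 each). All 10 listed adipocyte markers summed to 2733 to 5141 normalized counts in knockouts and 2241 to 4919 in floxed controls. Fabp4 was the largest part of each sum, and its highest mouse was 1.6 times the lowest. The fat hormone gene Adipoq had 119.9, 39.2, 188 and 46.0 in knockouts 5 to 8, against 11.8, 79.2, 188 and 95.1 in floxed controls 1 to 4. Lep and Adrb3 were under the filter. The 8 tested Schwann cell markers had a level of 6.63 ± 0.197 in knockouts and 6.47 ± 0.348 in floxed controls (SD, n = 4 each). All 10 listed Schwann cell markers summed to 1480 to 1935 and 1321 to 1953 in the same order. Egr2 was at 0 in all knockouts and in floxed controls 3 and 4. Both levels overlapped between the groups, and no adipocyte or Schwann cell marker was called.

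Scd1 and Acaca followed the adipocyte level across the 8 mice more closely than any other member. The level was compared with each of the 34 members, as was the Schwann cell level, which gives 68 relations. For Acaca, Pearson's r was 0.922 (exact permutation p 0.0020, adjusted 0.0734) and Spearman's rho was 0.810 (exact permutation p 0.0218, adjusted 0.735). For Scd1, r was 0.884 (exact permutation p 0.0022, adjusted 0.0734) and rho was 0.786 (exact permutation p 0.0279, adjusted 0.735). No relation passed an adjusted p of 0.05. Without knockout 7 and floxed control 1, the mice farthest from the median level, r was 0.839 for Acaca and 0.902 for Scd1 (n = 6, exact permutation p 0.0444 and 0.0139). With each group's mean removed, r was 0.923 for Acaca and 0.882 for Scd1, both with an adjusted permutation p of 0.0464. That p is approximate, because values with group means removed were permuted across the groups, which is not an exact test.

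For Fasn, as for some other members, the value turned on the mice at the ends of the adipocyte level. Over 8 mice its r was 0.351 (exact permutation p 0.390) and its rho 0.262 (exact permutation p 0.536), and floxed control 1, with the least Adipoq of the 8 mice, had 714 normalized counts of Fasn, the second highest. Without knockout 7 and floxed control 1, r was 0.898 and rho 0.886 (n = 6, exact permutation p 0.0167 and 0.0333, adjusted 0.302 and 0.567). Leaving out the same mice moved r of Srebf2 from 0.525 to 0.928, then the highest of the members with the adipocyte level. With the Schwann cell level, r moved from 0.368 to 0.921 for Mvk and from 0.106 to 0.790 for Mvd, while that of Pmvk fell from 0.751 to 0.628. Over the 8 mice, r of Srebf1 with the adipocyte level was 0.671 and rho 0.667 (exact permutation p 0.0747 and 0.0831). Of the sterol genes, Hmgcs1 and Pmvk had the highest r with the Schwann cell level over the 8 mice, 0.808 and 0.751. Their exact permutation p was 0.0234 and 0.0255, both adjusted 0.434, and rho was 0.619 and 0.738. For Hsd17b7 the Schwann cell r was 0.625 and rho 0.619 (exact permutation p 0.102 and 0.115), and for Nsdhl r was 0.422 and rho 0.452 (exact permutation p 0.288 and 0.267). Insig1 had an r of -0.673 and a rho of -0.690 with the same level (exact permutation p 0.0685 and 0.0694, adjusted 0.748 and 0.735).

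**Figure D5:**
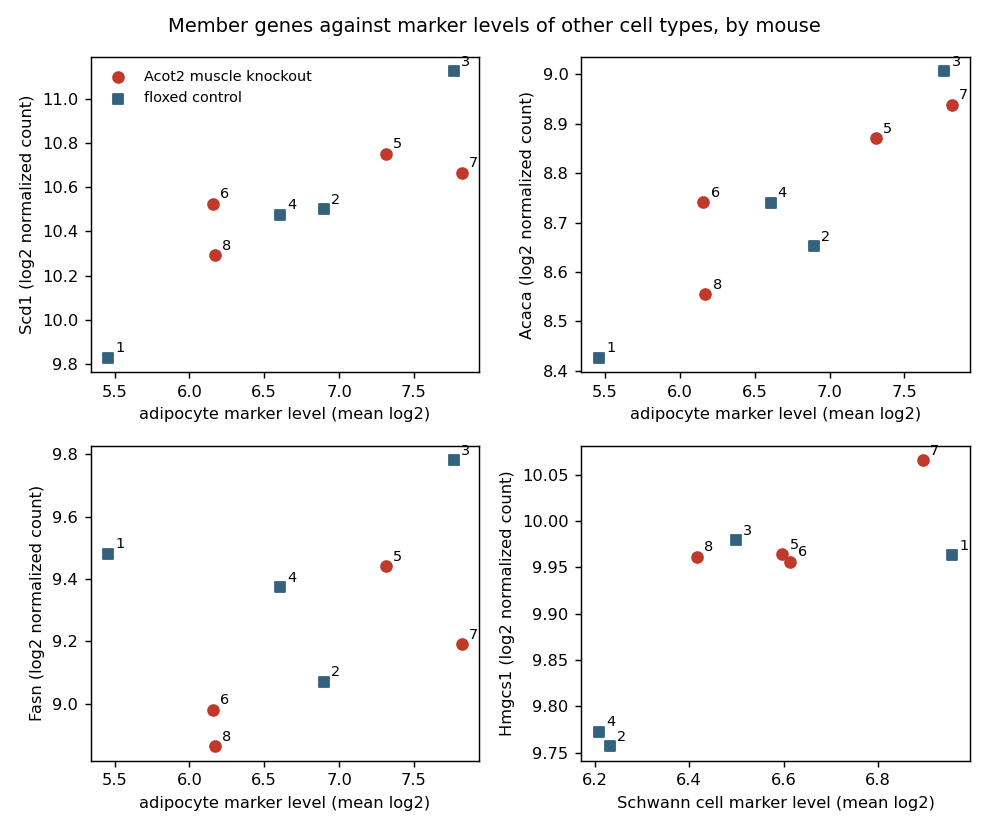
Scd1, Acaca and Fasn against the adipocyte marker level, and Hmgcs1 against the Schwann cell marker level, 1 point per mouse with its replicate number (log2 normalized counts; the levels are means of the log2 values of 8 markers each). Scd1 and Acaca climb with the adipocyte level from floxed control 1 to the mice at 7.3 and above. Fasn has an r of 0.351 over the 8 mice and of 0.898 without knockout 7 and floxed control 1.

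The macrophage, endothelial, slow fibre and fibroblast marker lists had larger median differences than the 0.084 of the sterol genes. The 8 fast fibre markers, with a median of 0.060, did not. The median of the 5 fibroblast markers, 0.154, was under the 0.171 of the sterol enzymes. The 5 macrophage markers all had positive differences, with a median of 0.42, and summed to 1317 to 2365 normalized counts in knockouts and 718 to 1566 in floxed controls. Of the 5 endothelial markers 4 had positive differences, with a median of 0.24, and sums of 5396 to 6980 in knockouts and 4699 to 5848 in floxed controls. The 5 slow fibre markers had a median difference of 1.25, and their sums were 36.3 to 746 in knockouts and 41.8 to 219.8 in floxed controls. No marker of these lists was called, and their part in the values of the sterol enzymes was not tested.

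Reads of some members could be shared with neighbours. In the GENCODE annotation of GRCm38, exons of Srebf1 overlap Rai1 on the other strand, those of Fdft1 overlap Ctsb, those of Cyp51 overlap Akap9 and those of Elovl1 overlap Cdc20. The library kit keeps the strand, but the strand setting of the counting is not given in the sources used here. Other-strand overlaps with transcripts that carry provisional names occur for Me1, Elovl6, Mlxipl, Hmgcs1, Idi1 and Lss. Exons of Scd2, Srebf1, Pnpla3 and Fdps overlap another annotated gene on the same strand, which the strand setting does not resolve. The counts of all these genes are uncertain to that extent.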

How the data were processed

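Per the submitters' processing notes, reads were processed with cutadapt, FastQC, STAR, HTSeq and DESeq2, with no versions given, on build GRCm38. Per the labels' protocols, total RNA was made into libraries with a stranded TruSeq kit. The authors deposited log2 values for 54091 rows and 8 libraries. From the values, each is log2(n + 1), with n the read count over 1 size factor per library; multiplying back gave whole reads (tolerance 0.1) for 100% of values of at most 200 reads. A log2 pseudocount of 1 understates changes of low genes.

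The genotype test was limma (version 3.58.1, R 4.3.3; lmFit and eBayes with trend) over the genes whose normalized counts averaged 10 or more. Permutation tests are two-sided. They are exact, except for relations with group means removed, where values were permuted across the groups and the p is approximate. The level of a marker list is the mean log2 value of its tested markers. Levels per kilobase use the longest GENCODE transcript. On simulated data with 13141 genes, of which 200 were changed, limma called 66.3% of 2-fold changes. That share does not carry over to a comparison in which few genes change. The most alike pair of libraries, floxed control 4 and knockout 5, differed by 17.8 times the sampling noise, so none was counted as a duplicate.

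The members, neighbour genes, markers and tests were chosen with earlier results of these data known. Values in every mouse are given for the regulators, the 5 tested genes of each pathway with the smallest p and the 3 with the highest level per kilobase. Of the neighbour genes, the 2 of each side with the smallest p are named. Scd2, Acly and the other members are given by mean. Alternatives covered the pseudocount, the filter, the scaling, the variance model, voom on recovered reads, the mouse number range and single libraries left out. The libraries' number, 4 per group, limits precision.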

Additional observations from a re-analysis of the deposited data

Results flagged for a closer look

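Of 76 sets of 4 mice (each of the 35 genes with a row, Acot2 and the 2 marker levels, in each group), 5 had a highest or lowest mouse far from the others, where about 1 in 20 is flagged by chance. Each is given as the gap to the nearest mouse over the whole range of the 4, on log2 values, and each exceeded Dixon's 95% critical value. For Fads2, knockout 5 stood above the other knockouts with a ratio of 0.902, at 43.3 normalized counts beside 26.6 to 27.9. For Hmgcs1, knockout 7 stood above the other knockouts with a ratio of 0.927, at 1071 beside 992 to 998. For Srebf1, floxed control 1 stood under the other controls with a ratio of 0.857, at 572 beside 678 to 697. For Thrsp, floxed control 2 stood under the other controls with a ratio of 0.971, at 144 beside 251 to 255. For Srebf2, floxed control 3 stood above the other controls with a ratio of 0.880, at 333 beside 283 to 288.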

How the results depend on the processing

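No paired analysis was possible because the replicate numbers run from 1 to 8 over the series and no number is shared by the groups. Under 18 alternatives, 0 lipogenic and 0 sterol genes passed an adjusted p of 0.05, as did 0 neighbour genes, an alternative chosen after seeing the data. The count of lipogenic genes with an unadjusted p under 0.05 was 0 to 3 with single libraries left out (2 without floxed control 2, 3 without knockout 5) and 2 without both floxed control 4 and knockout 5; the sterol count was 2 to 4. Over all genes, 2200 had an unadjusted p under 0.05 without knockout 5 and 862 without floxed control 2. With both floxed control 4 and knockout 5 left out, 1509 did. Hsd17b7 (0.38 to 0.56) and Insig1 (-0.38 to -0.24) kept an unadjusted p under 0.05 in 18 of 18 alternatives and Nsdhl in 11 of 18. The median difference ran from 0.0191 without floxed control 4 to 0.137 without knockout 5 for sterol genes, and from -0.0886 to 0.0471 for lipogenic genes.

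Mlxipl, with a difference near 0, was at -0.000176 with voom and between -0.0357 and 0.0358 with single libraries left out. Scd1 ran from -0.142, without floxed control 1, to 0.290. With genotype means removed, 2 relations with marker levels passed by Pearson's r, with an approximate permutation p. Without the 2 farthest mice, 0 passed. Scaling to equal totals moved the median of all genes to 0.0443 and gave 491 higher and 246 lower unadjusted calls, against 324 and 486. Acot2 had an adjusted p of 0.00421 with no filter on low values. The causes were not tested. Sqle and Elovl6 are limited by depth.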
